A study of Mus musculus with 21 samples.

Results

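The 33 genes described here encode the mitochondrial pyruvate carrier, the pyruvate dehydrogenase complex with its kinases and phosphatases, pyruvate carboxylase and the enzymes of the tricarboxylic acid (TCA) cycle, succinate dehydrogenase included. They were taken by symbol from a list of these enzymes, and all 33 were among the 55487 genes of the count table and among the 18146 genes that had enough counts to be tested. Their transcript levels were compared in the hippocampus of mice after maternal separation (MS) and after standard rearing (SR), to ask which differences remained in young adults.

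Pyruvate made by glycolysis enters mitochondria through a carrier built from MPC1 and MPC2. The pyruvate dehydrogenase complex turns it into acetyl-CoA, a step that kinases switch off and phosphatases switch on, while pyruvate carboxylase turns it into oxaloacetate. The TCA cycle then oxidises the acetyl group and passes electrons to the respiratory chain, to which succinate dehydrogenase also belongs as complex II, and in brain the same cycle supplies carbon for the transmitters glutamate and GABA.

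The mice were wild type C57BL/6 males, and the whole hippocampus was taken at 10 weeks of age for poly-A RNA sequencing, with 1 library per mouse. In the MS group dam and intact nest were separated for 4 hours a day on postnatal days 10 to 17, in turn in the light and in the dark phase, and most of the nesting material was taken out of their home cages over these days. SR nests were left with the dam. Pups of all nests had been redistributed over dams soon after birth, and weaned males were housed with litter mates of the same sex. The labels name no nest, but the animal numbers fall into 7 sets of 3 consecutive numbers, each of 1 rearing condition. These sets are called A to C in MS and D to G in SR, and a mouse is named by its set and its place in it. Sets A, B, D, E and F have a first range of animal numbers and sets C and G a second one. Mice of a set may be litter mates, so p-values over mice measure the spread between mice and not between independent nests.

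One MS library, A2, stood apart and was left out, so that 8 MS and 12 SR mice were compared. It scored 27.1 on the first principal component, where the 20 other libraries lay between -12.2 and 11.9. Its summed level of 7 striatal neuron genes was 1821 CPM (counts scaled to the size of the library), against 116 to 674 in the other MS mice and 126 to 439 in SR, and its dentate granule neuron genes summed to 49.8 CPM against 198 to 442 in all other mice. In A2, 17 of the 33 members were lower than in every other mouse and 2, Pdp1 and Suclg2, were higher. The kept libraries held 17276810 to 24052716 counts in MS and 18368519 to 26450808 in SR, and the lowest count of a member in any of them was 116. Summed markers of astrocytes, oligodendrocytes, microglia, endothelium, dentate granule and CA pyramidal neurons overlapped between the groups, with 0 of their 28 genes called. The 4 general neuron genes summed to 3675 to 4235 CPM in MS and 4017 to 4463 CPM in SR, with 3 of 4 lower in MS at an unadjusted p below 0.05 and 0 called. Choroid plexus genes summed to 52.2 to 4160 CPM in MS, with a median of 3285, and to 28.2 to 4482 CPM in SR, with a median of 828.6. The part of the neuron genes in the member values was not tested.

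No member differed between MS and SR past the adjusted threshold of 0.05 in edgeR's quasi-likelihood test (0 of 33, where 2 of all 18146 genes, or 0.011%, were called). At an unadjusted p below 0.05 the test gave 4 members, all higher in MS, Sdhd, Mpc2, Idh2 and Sdhc, and 0 lower, beside 6.62% of all genes higher and 4.92% lower. DESeq2 called 2 members, Sdhd and Mpc2, in a fit that called 134 of 39023 genes (0.343%). Genes with low counts were not removed before that fit, so this share has a wider base than those of edgeR. With the set of animal numbers as a random block, limma-voom called 0 members and 0.011% of all genes. An edgeR fit on counts summed within each set called 0 members and 0 of 21752 genes. In the fitted values 23 of 33 members were higher in MS and 10 lower, where 50.3% of all genes were higher, and 22 members changed sign in some alternative fit without a p below 0.05 in either. The median log2 fold change (MS minus SR) of the members was 0.03, against 0.0008 for all genes tested, and 27 of 33 members lay within 0.1 of 0. The 95% intervals of 29 members held 0, and over all members the intervals ran from 0.879-fold to 1.33-fold. The CPM of MS and SR mice overlapped in all 33 members, where 0.011% of all genes did not overlap. In whole tissue, fewer cells of a type and less RNA per cell cannot be told apart.

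**Figure D1:**
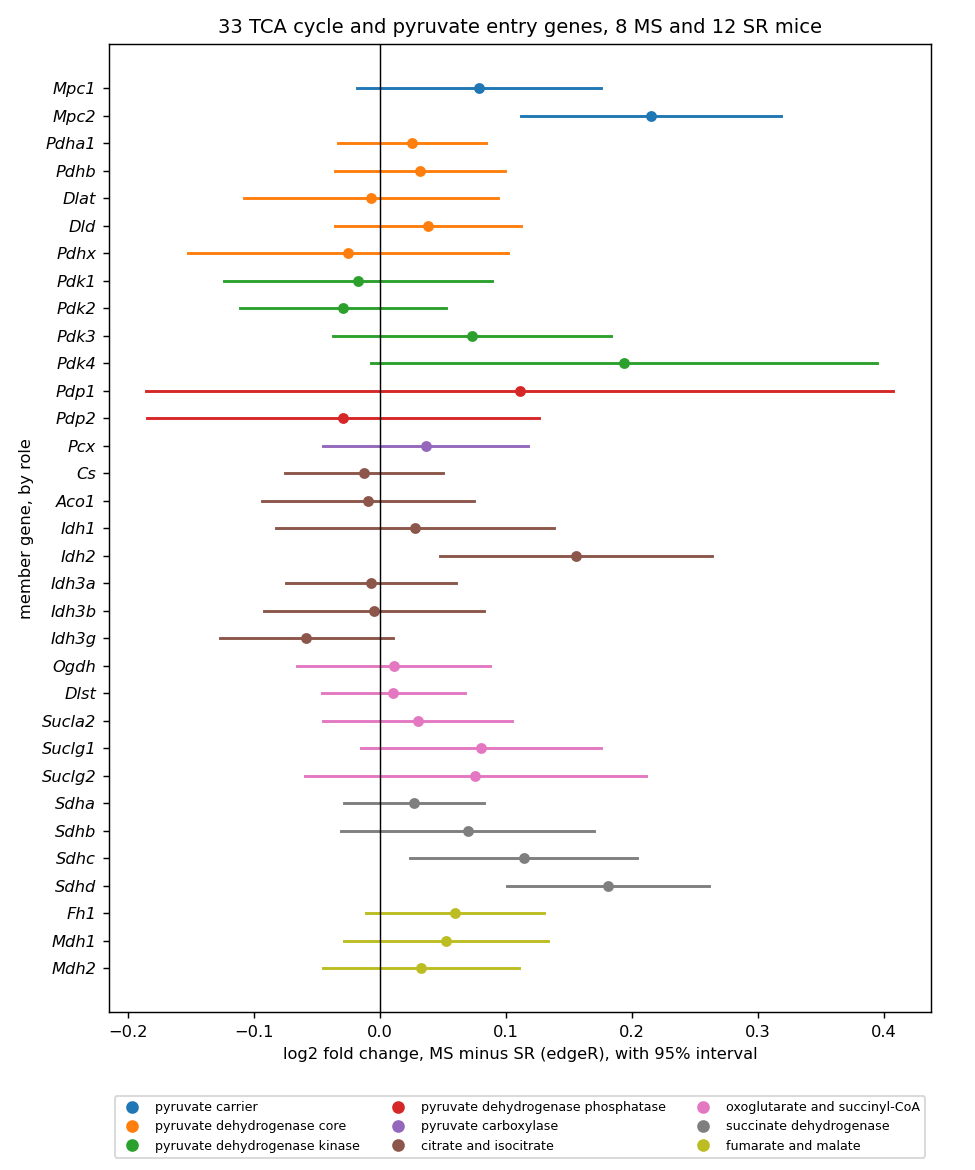
Log2 fold change of each of the 33 members, MS minus SR, from edgeR on 8 MS and 12 SR mice. Points are fitted values, bars are 95% intervals, and colours give the role of the gene. The intervals of Mpc2, Idh2, Sdhc and Sdhd lie above 0, and those of the other 29 members hold 0.

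The 2 subunits of the mitochondrial pyruvate carrier both had higher means in MS. Mpc2, at chr1:165460637-165481214 (GRCm38), spanned 40.4 to 55.9 CPM in MS with a median of 46.3, and 37.2 to 43.8 CPM in SR with a median of 39.9. All 8 MS mice were above the SR median and 5 were above the highest SR mouse. Group means were 46.5 ± 5.19 CPM (SD, n = 8) and 40.1 ± 1.90 (SD, n = 12), a log2 fold change of 0.22 (SE 0.05) that edgeR did not call (adjusted p = 0.111). Its partner Mpc1, on chromosome 17, spanned 33.1 to 40.6 CPM in MS with a median of 38.01 and 31.1 to 40.9 CPM in SR with a median of 36.1. The groups overlapped almost wholly, with a log2 fold change of 0.08 (SE 0.05; edgeR adjusted p = 0.538). Mpc1 has a processed pseudogene, Mpc1-ps, 99.7% identical over 330 bases, whose counts came to 15.9% of those of Mpc1, so how reads were split between them is uncertain. Mpc1-ps itself had a log2 fold change of 0.13 (edgeR adjusted p = 0.560).

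The fitted values of the pyruvate dehydrogenase core lay close to 0. Its members are Pdha1 and Pdhb, the subunits of the E1 dehydrogenase, Dlat, the E2 acetyltransferase, Dld, the E3 dehydrogenase shared with other oxoacid complexes, and Pdhx, which ties E3 to E2. None of the 5 passed an unadjusted p of 0.05, and their log2 fold changes lay between -0.03 for Pdhx and 0.04 for Dld. Pdha1 was at 157.9 ± 4.15 CPM in MS (SD, n = 8) and 155.2 ± 5.87 in SR (SD, n = 12), and its interval ran from -0.03 to 0.08. In the MS group 7 mice held Pdhx at 34.3 to 38.5 CPM while mouse C1 was at 50.4 CPM, and only that mouse was above the SR median of 39.9. Exons of Pdha1 share 603 bases with Map3k15 on the other strand, and such overlaps are of 480 bases for Mpc1 (with 4930506C21Rik), 52 for Mdh1 (with Wdpcp) and 5 for Idh3b (with Nop56). The strand setting of the counting is not stated, so reads in these stretches cannot be told apart.

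The 4 pyruvate dehydrogenase kinases inactivate the E1 subunit by phosphorylation. In SR, on the scale of CPM per kb of transcript, Pdk2 made up 68.6% of their summed level, Pdk1 14.1%, Pdk3 13.9% and Pdk4 3.39%. In MS the shares were 67.4%, 14.0%, 14.7% and 3.90% in the same order. Pdk2 therefore led the kinases in both groups.

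Pdk4, the kinase known for induction by fasting and glucocorticoids, was the least abundant. It spanned 8.30 to 12.1 CPM in MS with a median of 9.40, and 5.45 to 10.8 CPM in SR with a median of 8.62. Only 2 MS mice, both of set B, were above the highest SR mouse, and the lowest value was that of SR mouse G1. The means were 9.79 ± 1.44 CPM in MS (SD, n = 8) and 8.54 ± 1.33 in SR (SD, n = 12), with a log2 fold change of 0.19 (SE 0.10; edgeR adjusted p = 0.455). Pdk1, a target of hypoxia signalling, was at 52.4 ± 4.73 CPM in MS (SD, n = 8) and 53.1 ± 3.97 in SR (SD, n = 12), with a log2 fold change of -0.02 (SE 0.05; edgeR adjusted p = 0.932). For Pdk2 the means were 109.2 ± 7.36 CPM (SD, n = 8) and 111.4 ± 5.74 (SD, n = 12), with a log2 fold change of -0.03 (SE 0.04; edgeR adjusted p = 0.825). Pdk3, which is encoded on the X chromosome, was at 22.4 ± 1.89 CPM (SD, n = 8) and 21.3 ± 1.66 (SD, n = 12), with a log2 fold change of 0.07 (SE 0.05; edgeR adjusted p = 0.631). None of the 4 kinases was separated between the groups.

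Of the phosphatases that reactivate the complex, Pdp1 was 6.50 times as abundant per kb as Pdp2 in SR. Pdp1 varied more between mice than any other member, with a coefficient of variation of 20.6% in SR and 29.2% in MS. It spanned 46.1 to 95.7 CPM in MS with a median of 49.9, and 43.3 to 81.5 CPM in SR with a median of 51.0. The log2 fold change of 0.11 (SE 0.14; edgeR adjusted p = 0.814) had an interval from -0.19 to 0.41, the widest of the 33. The sign of this value rested on mouse A1, without which it was -0.04, and without set A it was -0.01. Across all 21 libraries the 4 highest Pdp1 values were those of A2 at 105 CPM, A1 at 95.7, E2 at 81.5 and B1 at 63.9. Striatal neuron genes summed to 1821 CPM in A2, 674 in B1 and 439 in E2, the 3 highest sums, and to 147 CPM in A1. Dentate granule neuron genes summed to 49.8 CPM in A2, 198 in A1, 204 in E2 and 246 in B1. Their medians over the kept mice were 302 CPM in MS and 306 in SR. CA pyramidal neuron genes summed to 238 CPM in A2, 378 in A1, 360 in E2 and 494 in B1. Here the medians were 533 CPM in MS and 561 in SR. A1 was thus high in Pdp1 without a high striatal sum, and had the lowest dentate granule sum of the kept mice. The part of tissue composition in the Pdp1 values was not tested. Pdp2 was at 10.9 ± 1.67 CPM in MS (SD, n = 8) and 11.1 ± 0.802 in SR (SD, n = 12).

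Pcx, the pyruvate carboxylase that glia use to refill the cycle, was at 84.0 ± 6.62 CPM in MS (SD, n = 8) and 81.9 ± 3.53 in SR (SD, n = 12). Its log2 fold change was 0.04, with an interval from -0.05 to 0.12.

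Among the 7 genes of the citrate and isocitrate steps only Idh2 had an unadjusted p below 0.05. Idh2, the NADP-dependent mitochondrial isocitrate dehydrogenase at chr7:80094846-80115392 (GRCm38), spanned 38.9 to 54.1 CPM in MS with a median of 48.8, and 39.0 to 49.6 CPM in SR with a median of 42.5. In MS 7 of 8 mice lay above the SR median and 3 above the highest SR mouse, but mouse C3 was lower than every SR mouse. Means were 48.3 ± 4.63 CPM (SD, n = 8) and 43.4 ± 3.08 (SD, n = 12), a log2 fold change of 0.16 (SE 0.05; edgeR adjusted p = 0.247). Idh2 was called in 1 alternative, without C3 (edgeR adjusted p = 0.0450). In the second range of animal numbers its log2 fold change was 0.05 (edgeR adjusted p = 0.964), with the choroid plexus level as a term 0.12 (edgeR adjusted p = 0.570), and with 2 surrogate variables 0.11 (edgeR adjusted p = 0.390).

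The NAD-dependent isocitrate dehydrogenase, which carries the main oxidative step, is built from Idh3a, Idh3b and Idh3g. Its catalytic subunit Idh3a was at 167.0 ± 8.80 CPM in MS (SD, n = 8) and 167.8 ± 6.30 in SR (SD, n = 12), with a log2 fold change of -0.01 (SE 0.03; edgeR adjusted p = 0.957). The regulatory subunit Idh3b was at 193.9 ± 15.3 CPM (SD, n = 8) and 194.7 ± 9.78 (SD, n = 12), with a log2 fold change of -0.01 (SE 0.04; edgeR adjusted p = 0.979). The other regulatory subunit, X-linked Idh3g, had the lowest fitted value of all 33 members. It spanned 104.2 to 124.6 CPM in MS with a median of 109.6, and 112.3 to 126.9 CPM in SR with a median of 115.7, and 5 of 8 MS mice lay under the lowest SR mouse. Its means were 111.8 ± 6.57 CPM (SD, n = 8) and 116.5 ± 4.14 (SD, n = 12), with a log2 fold change of -0.06 (SE 0.03; edgeR adjusted p = 0.514). The remaining genes of these steps, Cs (citrate synthase), Aco1 (the cytosolic aconitase) and Idh1 (the cytosolic isocitrate dehydrogenase), had log2 fold changes between -0.01 and 0.03.

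All 5 genes that lead from oxoglutarate to succinate had fitted values between 0.01 and 0.08, and none passed an unadjusted p of 0.05. The sign did not hold under other settings, with -0.03 for Ogdh and -0.01 for Dlst when 2 surrogate variables were added, -0.02 and -0.01 with the choroid plexus level as a term, and -0.14 for Suclg2 in the second range of animal numbers. Ogdh and Dlst encode the E1 and E2 parts of the oxoglutarate dehydrogenase complex, and both had log2 fold changes of 0.01 in the fit of all 20 mice. Succinyl-CoA ligase pairs Suclg1 with either Sucla2, the ADP-forming subunit, or Suclg2, the GDP-forming one. On the scale of CPM per kb, Sucla2 was 10.9 times as abundant as Suclg2 in SR. The processed pseudogene Gm15163, near-identical to Suclg2, held 0.928% of its counts. Suclg1 spanned 67.0 to 87.9 CPM in MS with a median of 69.1, and 59.9 to 73.9 CPM in SR with a median of 67.3. The highest MS value was that of mouse C1, and the other 7 were within the SR range. Means of 71.3 ± 6.79 CPM (SD, n = 8) and 67.5 ± 3.83 (SD, n = 12) gave a log2 fold change of 0.08 (SE 0.05; edgeR adjusted p = 0.525).

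Succinate dehydrogenase has 4 nuclear-encoded subunits, the catalytic flavoprotein Sdha, the iron-sulphur protein Sdhb, and the membrane anchors Sdhc and Sdhd. All 4 had higher means in MS, and the difference was smallest in Sdha, whose log2 fold change was -0.02 in the second range of animal numbers. Sdhd, at chr9:50596357-50603812 (GRCm38), spanned 48.4 to 56.3 CPM in MS with a median of 51.8, and 42.8 to 49.3 CPM in SR with a median of 45.1. All 8 MS mice were above the SR median and 4 were above the highest SR mouse. Means were 52.1 ± 3.41 CPM (SD, n = 8) and 45.9 ± 2.24 (SD, n = 12), with a log2 fold change of 0.18 (SE 0.04; edgeR adjusted p = 0.111). Its unadjusted p of 0.000102 in edgeR was the smallest of the 33 members.

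The other anchor, Sdhc, at chr1:171127165-171150603 (GRCm38), spanned 59.3 to 78.9 CPM in MS with a median of 68.6, and 59.0 to 68.1 CPM in SR with a median of 62.3. The groups overlapped over most of the SR range, with 4 MS mice above it. Its means were 68.2 ± 5.85 CPM (SD, n = 8) and 63.0 ± 3.27 (SD, n = 12), with a log2 fold change of 0.11 (SE 0.04; edgeR adjusted p = 0.315). Sdhb spanned 69.1 to 101.7 CPM in MS with a median of 80.6, and 73.3 to 83.8 CPM in SR with a median of 77.0. Mouse C1 alone was above the SR range and C3 alone below it, and the log2 fold change was 0.07 (SE 0.05; edgeR adjusted p = 0.611), from means of 81.1 ± 9.48 CPM (SD, n = 8) and 77.3 ± 3.01 (SD, n = 12). Sdha spanned 345.5 to 372.9 CPM in MS with a median of 360.4, and 333.3 to 365.1 CPM in SR with a median of 356.0. It had the smallest spread of all members in SR, a coefficient of variation of 2.88%, and its log2 fold change was 0.03 (SE 0.03; edgeR adjusted p = 0.746), from means of 359.2 ± 8.64 CPM (SD, n = 8) and 352.6 ± 10.2 (SD, n = 12).

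**Figure D2:**
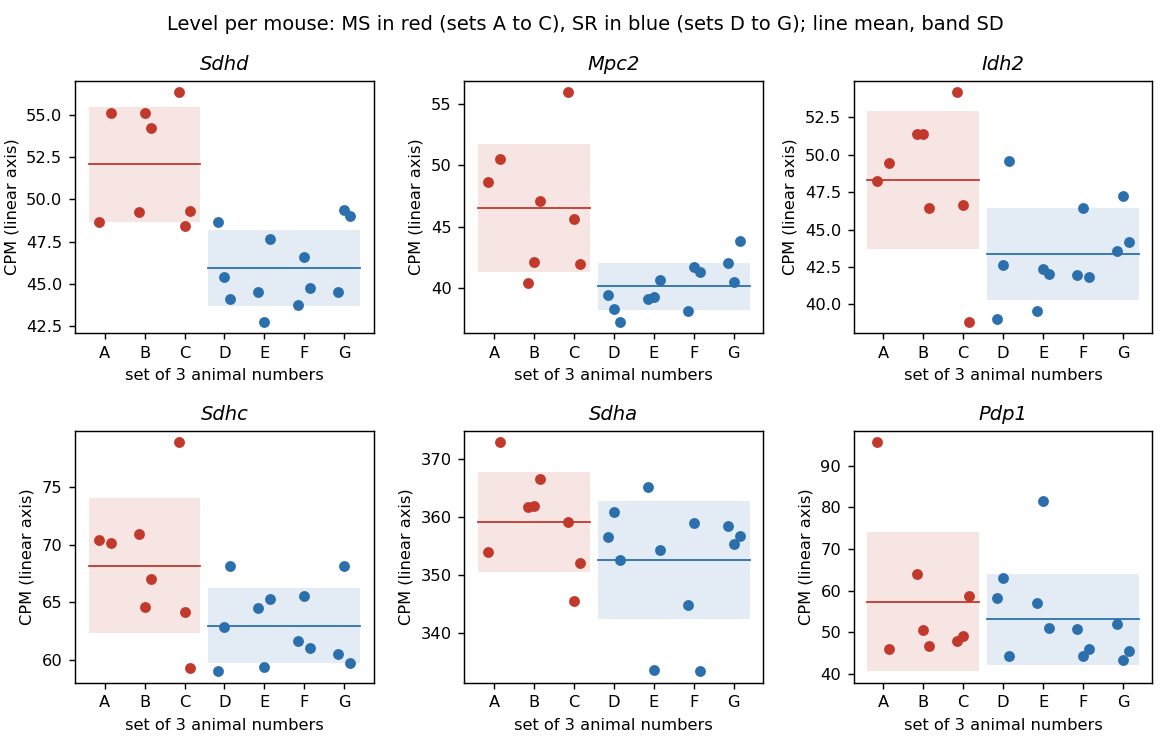
CPM in each of 8 MS mice (red, sets A to C) and 12 SR mice (blue, sets D to G) for 6 members, on linear axes that do not start at 0. Lines are group means and bands the SD. All MS mice exceed the SR median in Sdhd and Mpc2, the groups overlap in Sdha, and single mice, A1 in MS and E2 in SR, are highest in Pdp1.

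Because subunits of 1 enzyme are measured in the same libraries, 13 ratios between subunits were also computed for each mouse. They were chosen after the levels above had been seen, and Sdhd and Sdha are the complex II subunits that differed most and least, so the ratios describe the same values again and are given with no test. The ratio of Sdhd to Sdha CPM was 0.136 to 0.157 in MS and 0.122 to 0.139 in SR, with medians of 0.144 and 0.129. All 8 MS mice were above the SR median and 6 were above the highest SR mouse. The mean log2 ratio differed by 0.15, by 0.13 with A2 included and by 0.16 within the first range of animal numbers. The log2 ratio of Sdhd to Sdhb differed by 0.12, and that of Mpc2 to Mpc1 by 0.13. Ratios within the Idh3 enzyme differed by -0.05 for Idh3g to Idh3a and by 0.00 for Idh3b to Idh3a, and that of Pdhb to Pdha1 by 0.01.

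**Figure D3:**
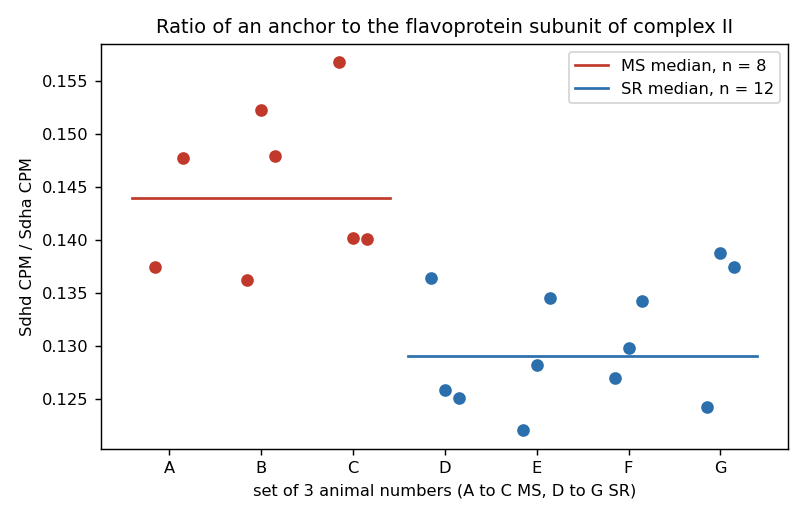
Ratio of Sdhd CPM to Sdha CPM in each mouse, by set of animal numbers, on a linear axis that does not start at 0. Lines are the group medians, 0.144 in 8 MS mice and 0.129 in 12 SR mice, and 6 MS mice lie above the highest SR mouse.

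The promoters of the 2 members with the smallest p, Sdhd and Mpc2, are shown beside that of Sdha, the subunit of complex II that differed least. They are the 250 bases before the RefSeq start on the gene's strand (GRCm38.p6), at chr9:50603850-50604099 (minus strand) for Sdhd, chr13:74350241-74350490 (minus strand) for Sdha and chr1:165461010-165461259 (plus strand) for Mpc2. Starts of the genes in GENCODE differ from these. That of Sdha lies inside its window, and that of Mpc2 lies 373 bases before its window, so that the bases shown for Mpc2 are within the gene as GENCODE has it. Capitals mark matches, on either strand, to the core of the NRF1 motif (GCGCA, any base, then GCGC) and to the ETS motif CCGGAAG.
Sdhd: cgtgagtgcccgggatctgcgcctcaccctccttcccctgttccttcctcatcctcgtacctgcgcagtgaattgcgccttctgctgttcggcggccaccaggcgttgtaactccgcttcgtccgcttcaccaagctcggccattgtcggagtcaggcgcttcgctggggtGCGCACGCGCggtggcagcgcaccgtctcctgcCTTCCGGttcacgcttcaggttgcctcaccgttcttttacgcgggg
Sdha: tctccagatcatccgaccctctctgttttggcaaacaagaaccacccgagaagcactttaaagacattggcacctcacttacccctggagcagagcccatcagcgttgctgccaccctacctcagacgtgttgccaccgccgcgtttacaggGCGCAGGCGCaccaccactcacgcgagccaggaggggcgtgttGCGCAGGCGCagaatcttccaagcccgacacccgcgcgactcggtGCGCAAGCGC
Mpc2: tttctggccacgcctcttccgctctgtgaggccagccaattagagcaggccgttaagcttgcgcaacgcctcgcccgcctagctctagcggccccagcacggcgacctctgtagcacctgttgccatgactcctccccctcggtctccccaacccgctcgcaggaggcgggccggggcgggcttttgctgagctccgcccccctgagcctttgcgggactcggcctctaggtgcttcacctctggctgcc

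A window was at hand for 30 of the 33 members, all but Pdp1, Idh3a and Sdhc. The NRF1 core was found in 3 of the 30 (Sdha, Sdhd and Sucla2), against 4.23% of all 27025 gene windows. Sdhd held 1 match, at -79 to -70 from the start, and Sdha held 3, the nearest ending at -1. The ETS motif was found in 3 of 30 (Idh3g, Mpc1 and Sdhd), against 7.83% of all windows, and in Sdhd it lay at -46 to -40 as its reverse complement. Mpc2 held neither, and neither the full NRF1 motif, in which the free base of the core is T (0.877% of all windows), nor the ERR motif TCAAGGTCA (0.422%) was found in any of the 30.

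Fh1 (fumarase) and Mdh2 (the mitochondrial malate dehydrogenase) close the cycle, while Mdh1 is the malate dehydrogenase of the cytosol. All 3 had higher means in MS, with none below an unadjusted p of 0.05. Fh1 spanned 62.0 to 73.9 CPM in MS with a median of 64.2, and 60.6 to 66.2 CPM in SR with a median of 63.3. Only C1 and C3, both of set C, were above the SR range. Its means of 66.0 ± 4.33 CPM (SD, n = 8) and 63.3 ± 1.90 (SD, n = 12) gave a log2 fold change of 0.06 (SE 0.03; edgeR adjusted p = 0.522). Mdh1 and Mdh2 had log2 fold changes of 0.05 and 0.03.

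The members differed far more from each other than between groups. Per kb of transcript in SR, Mdh1 was the most abundant at 218 ± 10.6 CPM per kb (SD, n = 12), followed by Mdh2 at 150 ± 5.89, Sdha at 122 ± 3.50 and Idh3b at 120 ± 6.05. The lowest were Suclg2 at 4.53 ± 0.346, Pdk4 at 2.45 ± 0.382 and Pdp2 at 1.94 ± 0.141, so that Mdh1 exceeded Pdp2 by 112-fold. Of the 32 pairs of neighbours in this order, 22 had overlapping ranges over the 12 SR mice, Sdha and Idh3b among them. Within complex II, Sdha was 1.80 times as abundant per kb as Sdhb, 3.26 times as Sdhd and 6.12 times as Sdhc. The regulators of pyruvate dehydrogenase, apart from Pdk2, lay with Pdhx, Idh1, Aco1 and Suclg2 at the low end.

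**Figure D4:**
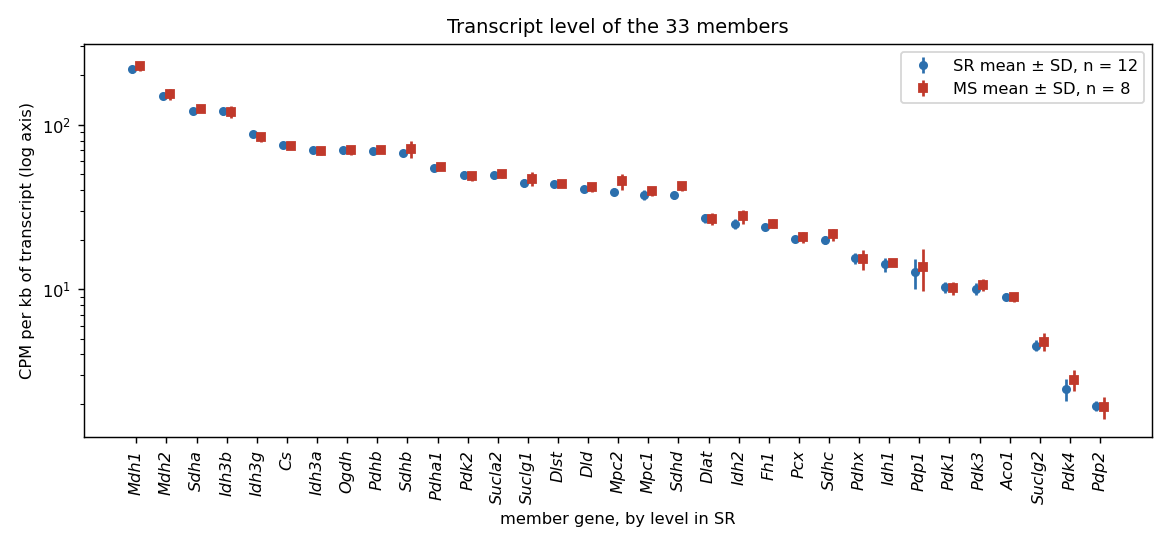
Mean level of the 33 members in CPM per kb of transcript, on a log axis, in order of the SR mean. Blue circles are SR (n = 12) and red squares MS (n = 8), and bars are the SD. Levels run from 218 for Mdh1 to 1.94 for Pdp2 in SR, and the MS and SR bars meet for every gene except Sdhd.

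The spread between mice was larger in MS than in SR for 28 of 33 members, with a median coefficient of variation of 6.74% against 4.98%. This difference was not tested. The share of all genes with a larger spread in MS was not computed, so the count cannot be read as particular to the members. One mouse stood out within MS. C1 was the highest of the 20 mice in 13 of the 33 members, and E2, an SR mouse, was the lowest in 10. The same counts were not made over all genes. The median deviation of the 33 members from the SR mean was 0.10 on the log2 scale in C1, the highest of the 20 mice, and -0.08 in E2, the lowest. C1 also had the lowest rank correlation between level and transcript length over all genes, 0.365, where the other MS mice lay between 0.390 and 0.415 and the SR mice between 0.392 and 0.410. Its summed oligodendrocyte genes (7106 CPM) and microglia genes (127 CPM) were the highest of the 20 mice. E2 had the lowest sum of CA pyramidal neuron genes, 360 CPM, and the highest striatal sum in SR, 439 CPM. The part of tissue composition in these counts of members was not tested. The part of C1 in the member values was measured by leaving it out. The log2 fold changes were then 0.16 for Sdhd, 0.17 for Mpc2, 0.13 for Idh2 and 0.08 for Sdhc, the last with an unadjusted p of 0.0511 in edgeR. Members in which C1 lay far from the other MS mice also moved. Without C1, Sdhb had a log2 fold change of 0.02 in place of 0.07, Suclg1 of 0.03 in place of 0.08, Mdh2 of -0.0017 in place of 0.03, and Pdhx of -0.09 in place of -0.03. None of these values was called with or without C1.

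Transcript length ran along with the direction of the fitted values over all genes. Tested genes were split by length into 4 classes of equal size. In the shortest class, up to 1676 bases, the median log2 fold change was 0.04 and 61.1% of genes were higher in MS. In the longest class, above 4245 bases, the median was -0.02 and 39.1% were higher. At an unadjusted p below 0.05 in edgeR, 11.6% of genes in the shortest class were higher in MS and 2.58% lower. In the longest class these shares were 3.03% and 7.51%. Mpc2 (1025 bases), Sdhd (1231 bases), Mpc1 and Sdhb are among the 9 members of the shortest class, of which 7 were higher in MS, with a median of 0.07. The 2 members of the longest class, Pdk1 and Pdp2, both had values below 0. Idh3g, at 1331 bases, is also short and had the lowest value. With the length trend of each library as a term, the log2 fold change was 0.17 for Sdhd and 0.17 for Mpc2 (edgeR adjusted p = 0.110 for both).

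**Figure D5:**
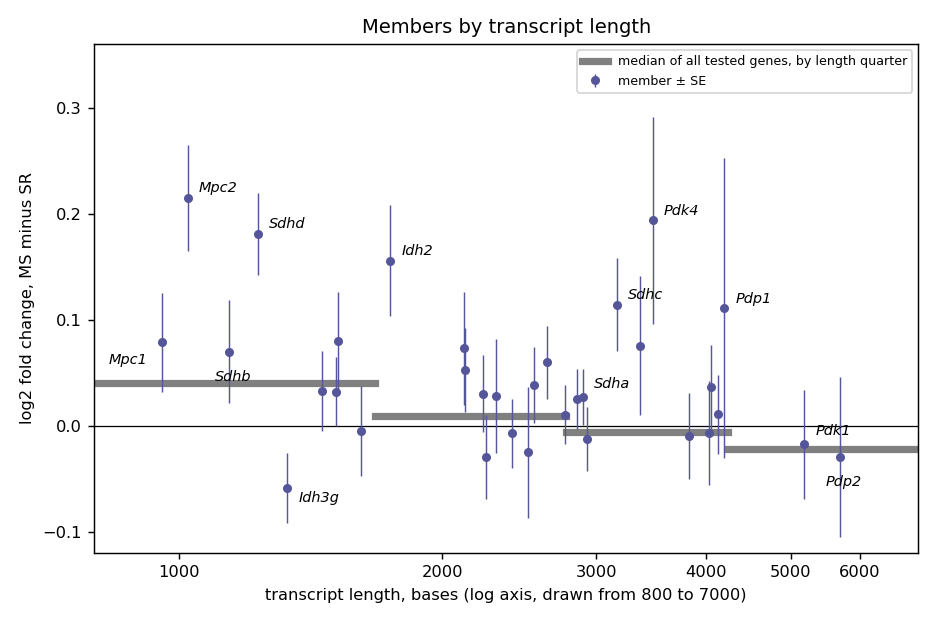
Log2 fold change of the 33 members (points, ± SE) against the length of their transcript in bases, on a log axis. Grey lines give the median of all tested genes in each of 4 length classes, 0.04 in the shortest and -0.02 in the longest. Mpc2 and Sdhd lie above the grey line of their class and Idh3g below it.

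The first range of animal numbers alone (5 MS and 9 SR mice) gave 2 called members, Sdhd (log2 fold change 0.21, edgeR adjusted p = 0.0283) and Mpc2 (0.21, edgeR adjusted p = 0.0468), in a fit that called 1.25% of all genes. At an unadjusted p below 0.05 it gave 8 of 33 members, where all genes gave 16.6%. Beside Sdhd, Mpc2, Idh2 and Sdhc these were Pdk4 and Suclg2, higher in MS, and Pdhx and Idh3g, lower. The second range (3 against 3 mice, set C against set G) gave 0 of 33 members at either threshold. There 0% of all genes were called and 4.52% had an unadjusted p below 0.05. There Sdhd had a log2 fold change of 0.11 (SE 0.09) and Mpc2 of 0.19 (SE 0.11).

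Whether members were called changed when mice of set C were left out. The share of all genes called, 0.011% with all kept mice, changed as well. Without the whole set, 2 members passed, Sdhd (edgeR adjusted p = 0.0212) and Mpc2 (edgeR adjusted p = 0.0456), in a fit that called 1.83% of all genes. The unadjusted p of Sdhd in edgeR was 0.000102 with the set and 0.000174 without it. For Mpc2 the unadjusted p in edgeR was 0.000245 with the set and 0.000782 without it. Without C2 alone, Sdhd passed (edgeR adjusted p = 0.0420), where 0.597% of all genes were called. Without C3 alone, Sdhd, Mpc2 and Idh2 passed (edgeR adjusted p = 0.0299, 0.0335 and 0.0450), where 0.596% of all genes were called. The unadjusted p of Sdhd in edgeR was 6.08e-05 without C2 and 9.98e-05 without C3, and that of Mpc2 0.000391 and 0.000152. With A2 put back, 0 members and 0.00553% of all genes were called, and the log2 fold changes of Sdhd and Mpc2 were 0.15 and 0.18. With the choroid plexus level of each library as a term they were 0.16 and 0.22 (edgeR adjusted p = 0.284 for both).

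The difference between the ranges was tested by an interaction term, which called 0 of 33 members, as of all genes (0%). The second range holds only set C in MS and set G in SR. Rearing there cannot be told apart from a difference between these sets, which may be single litters. The unadjusted p was below 0.05 for 2 of 33, beside 8.67% of all genes. Suclg2 had a log2 fold change of 0.19 in the first range and -0.14 in the second (interaction -0.33, edgeR adjusted p = 0.482). Fh1 had 0.00 in the first and 0.17 in the second (interaction 0.16, edgeR adjusted p = 0.531). For Sdhd and Mpc2 the interaction was -0.10 and -0.03, with edgeR adjusted p values of 0.762 and 0.959.

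Differences among sets within a condition were tested over all genes as well, and 0 of 33 members passed (6 of all genes, 0.0331%). Pdk4 and Pdk2 had an unadjusted p below 0.05, beside 9.09% of all genes. The set means of Pdk4 were 9.35 CPM in A, 11.2 in B and 8.69 in C, and in SR 8.31 in D, 8.67 in E, 9.99 in F and 7.21 in G (edgeR adjusted p = 0.485). Set B, which holds the highest MS values, and set G, which holds the lowest SR values, thus sit at the ends of the 7. Those of Pdk2 were lowest in set A at 99.9 CPM and highest in set G at 117.6 CPM (edgeR adjusted p = 0.548). For Sdhd and Sdhc the set test gave edgeR adjusted p values of 0.963 and 0.997.

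Genes that feed or assemble the cycle but are no members were listed alongside, 35 of them in the table and 34 tested, and 0 were called. Of the 34, 22 were higher and 12 lower in MS, where 50.3% of all genes were higher. Their median log2 fold change was 0.02, against 0.0008 for all genes tested. At an unadjusted p below 0.05 there were 3 higher and 1 lower, beside 6.62% of all genes higher and 4.92% lower. The 2 with the smallest p were Sdhaf4 and Slc25a13. Sdhaf4, an assembly factor of complex II, was at 8.33 ± 1.12 CPM in MS (SD, n = 8) and 7.27 ± 0.922 in SR (SD, n = 12), with a log2 fold change of 0.20 (SE 0.09; edgeR adjusted p = 0.382). Slc25a13, an aspartate-glutamate carrier, was at 4.26 ± 1.85 CPM in MS and 2.87 ± 0.994 CPM in SR, which gave 0.56 on the log2 scale (SE 0.25; edgeR adjusted p = 0.396).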

How the data were processed

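Hippocampal poly-A RNA of 21 mice (9 MS, 12 SR) was measured with 1 library per mouse. The authors prepared the libraries with a directional kit, aligned paired-end reads to GRCm38 with STAR 2.7.3a and counted them per Ensembl gene with featureCounts, whose version and strand setting are not given in the sources used here. The authors deposited raw counts, not normalized and not filtered. All 55487 lines name a gene, and 0 columns belonged to no sample. Symbols and transcript lengths came from GENCODE M21, which has an entry for 55227 of the genes. Totals of the kept libraries (17276810 to 26450808) set the counting error, which weighs most on weakly expressed genes.

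The library with the largest score on the first principal component (500 most variable genes, variance-stabilised counts) was left out, as the study's methods also removed 1 library. The study does not name the library it removed, so whether it was the same one is not known. Counts were tested with edgeR 4.0.16 (quasi-likelihood, robust, TMM, filterByExpr at a minimum count of 10) in R 4.3.3. Values of p were adjusted by Benjamini-Hochberg over 18146 genes, with a threshold of 0.05. The same fit tested sets of animal numbers and the interaction with their range. Standard errors were the log2 fold change over the square root of F. CPM per kb is the CPM of a gene over the length of its longest transcript marked as principal. Levels and ratios between genes on this scale depend on that choice of length. The exons of Mpc2, for example, cover 7344 bases, where 1025 were used. Near copies were sought with BLAST+ 2.17.0 (at least 200 bases at 95% identity). Alternatives used DESeq2 1.42.0, limma 3.58.1 and sva 3.50.0, other filters and scalings, extra terms and left-out mice or sets. The steps were tested on simulated data. Ratios between subunits are given as a description, with no test. The members, the lists and the rule for full statistics (the 10 smallest p values, the 4 kinases, and the subunits of Idh3 and succinate dehydrogenase) were chosen with earlier results of these data known. A sequence window was not used for 3 members. One gene that the rule for linked genes would name is not reported here.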

Additional observations from a re-analysis of the deposited data

Results flagged for a closer look

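In 6 of 33 members 1 of the 8 MS mice lay far from the other 7. Its gap to its neighbour was above Dixon's critical share of the range, 0.526. About 1 in 20 independent groups with a normal spread pass this value. The 33 groups hold the same 8 mice and are not independent, and the share of all genes that pass was not computed. In 4 of the 6 the mouse was C1. Pdhx was at 50.4 CPM in C1 and at 34.3 to 38.5 in the others. Suclg1 was at 87.9 CPM in C1 and at 67.0 to 70.9 in the others. Sdhb was at 101.7 CPM in C1 and at 69.1 to 83.3 in the others. Mdh2 was at 259.8 CPM in C1 and at 204.6 to 229.1 in the others. Pdk3 was at 26.5 CPM in B1 and at 20.8 to 23.4 in the others. Pdp1 was at 95.7 CPM in A1 and at 46.1 to 63.9 in the others. The SR group, with 12 mice, was not examined in this way.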

How the results depend on the processing

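Of 1526 alternative values, the ratios not counted, 1506 kept their direction and side of the threshold or, for values with no call, stayed uncalled. A further 19 became stronger, 1 became weaker and 0 reversed a call. No reversal was possible, as the main fits had called 0 members. The fitted values of 22 members changed sign in some alternative, with an unadjusted p of 0.05 or more in both fits, so they have no direction here. The number of members called was 2 with DESeq2, 2 in the first range of animal numbers and 2 without set C (Sdhd and Mpc2 each time), and 0 in the others, single left-out mice apart. Leaving out 1 mouse at a time gave 0 to 3. It gave 1 without C2 (Sdhd) and 3 without C3 (Sdhd, Mpc2 and Idh2), in fits that called 0.597% and 0.596% of all genes. Without set C, 1.83% of all genes were called. Members with an unadjusted p below 0.05 numbered 8 in the first range, 0 in the second range and 10 without set C (where 16.6%, 4.52% and 18.1% of all genes did), and 4 to 7 with 1 mouse left out. Among sets, 1 member (Pdp1) was called without a filter on low counts, in a fit that called 1992 of 39023 genes. With all 21 libraries 0 members were called and the log2 fold changes of Sdhd and Mpc2 were 0.15 and 0.18. The causes were not tested. No paired analysis was possible because the animal numbers in the labels are not shared between the groups.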
